A study of Mus musculus with 6 samples.

Results

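The genes described here are the 9 mouse genes Sass6, Plk4, Stil, Cep152, Cep192, Cenpj, Cep135, Cep63 and Cntrob, whose products build the centriole. They were taken by gene name from a deposited table of 22027 protein-coding genes, and all 9 were found, each in 1 row. The set was chosen by function around Sass6, with the difference between the labelled groups already known in all 6 libraries, so these normalised counts count as the values that selected it. That difference is given as a description and supports nothing by itself. RNA was sequenced from RAW 264.7 cells, an established mouse macrophage-like line derived from a leukaemia virus-induced tumour, carrying no engineered change (labelled WT). Wells of a 24-well plate received 10 pmol of siRNA with Lipofectamine RNAiMAX, and cells were harvested 48 h later. The libraries labelled siTET3 (n = 3) received 1 siRNA against Tet3, and the libraries labelled siCTL (n = 3) received a non-targeting (NT) siRNA. Only the sample titles tell the groups apart, since under treatment all 6 samples are given as siTET3. The labels do not say whether replicates were grown separately, and the spread behind each p-value may therefore be technical.

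Centrioles are the cylinders of microtubules at the core of the centrosome and at the base of cilia. A dividing cell copies each centriole in S phase. The kinase PLK4, gathered at the wall of the parent centriole by the scaffold proteins CEP152 and CEP192, phosphorylates STIL. STIL then recruits SASS6, whose ring-shaped assemblies stack into the cartwheel that templates the new centriole. CEP135 ties the cartwheel to the microtubule wall, and CENPJ, a tubulin-binding protein also called CPAP, sets the elongation of that wall. In human cells, STIL and SASS6 proteins are degraded at the end of mitosis. RAW 264.7 cells divide in culture.

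The whole table is summed up first, as far as it bears on these genes. All values are read counts that the authors had scaled by 1 size factor per library, called normalised read counts here. Depth ran from 29587171 to 61709131 reads per library, and 3 reads were worth between 1.90 and 3.82 normalised counts, far below the lowest value of any of the 9 genes, 347. Tet3, the gene targeted by the siRNA, had normalised counts of 1939, 1980 and 1950 in the libraries labelled siTET3, against 2171, 1911 and 2027 in the libraries labelled siCTL. The groups overlapped through siCTL replicate 2, the log2 change was -0.06 (95% interval from -0.26 to 0.15) and the exact two-sided permutation p was 0.4, where 3 against 3 libraries cannot go below 0.1. Its sign turned when libraries were scaled by size alone (0.03) and when the base-content trend was taken out (0.03). Every library labelled siTET3 lay below siCTL replicates 1 and 3, and leaving out siCTL replicate 2 gave a log2 change of -0.10 (limma adjusted p = 0.354), and with each library left out in turn the change lay between -0.10 and -0.01. No fit called Tet3 lower, so its RNA does not settle the labels, and each direction given here follows the labels alone. Of the 15 macrophage markers, Mrc1 and Mertk were near 0 and the others high in every library. Their summed count lay between 589292 and 623721 in the libraries labelled siTET3 and between 558005 and 672702 in those labelled siCTL. All 6 epithelial markers were at 0, and 8 T and B cell markers summed to at most 9.17 in any library.

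One library, siCTL replicate 2, stood apart and touched nearly every value that follows. The median chi-square per gene between it and the other siCTL libraries was 34.9 and 30.5, against 4.65 between siCTL replicates 1 and 3 and 1.53 to 2.27 among the libraries labelled siTET3. Its 8 fibroblast markers summed to 597 normalised counts, with Col1a2 at 286, against 24.5 to 41.7 for the same sum in the other 5 libraries. Col1a1 and Thy1, which also mark fibroblasts, were at 0 in all 6 libraries. Its counts also leaned towards transcripts rich in G and C. Its median log2 ratio to the mean of siCTL replicates 1 and 3 was -0.38 among the third of tested genes with the least G and C, and 0.21 among the third with the most. Their part in the results below was not tested, and values that it moved by more than 1.5 times are given with and without it.

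Sass6 was the member with the highest difference. Sass6 (ENSMUSG00000027959, chr3:116594982-116631004, plus strand, GRCm38) had normalised counts of 2150, 2180 and 2271 in the libraries labelled siTET3, against 1381, 1177 and 1309 in those labelled siCTL. Every library labelled siTET3 lay above every library labelled siCTL, with a gap wider than the range within either group. The mean was 2200 ± 63.1 in the libraries labelled siTET3 and 1289 ± 104 in those labelled siCTL (SD, n = 3 each). The fitted fold was 1.71, with a 95% interval from 1.46 to 2.0, or a log2 change of 0.77 ± 0.09 (SE). In the limma fit over all 11591 genes tested, its adjusted p was 0.0360, and Sass6 ranked 36th by p and 383rd by log2 change. The same gene in the authors' deposited table has a log2 change of 0.77 and an adjusted p of 1.1e-10.

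The Sass6 call depended on most single libraries, while its size did not. The log2 change stayed between 0.71 and 0.83 with each library left out in turn. The limma adjusted p without siTET3 replicates 1, 2 and 3 was 0.301, 0.306 and 0.313. Without siCTL replicates 1, 2 and 3 it was 0.0789, 0.00272 and 0.194. Among the fits with 1 library left out, calls over all genes tested fell in those that lost Sass6. Limma called 41 genes with all libraries, and 3, 2 and 2 without siTET3 replicates 1, 2 and 3. It called 24, 320 and 9 without siCTL replicates 1, 2 and 3. Removing the trend of level with base content from each library gave a log2 change of 0.50 (limma adjusted p = 0.150). In that fit Sass6 was lost although limma called 56 genes in all, against 41 before. Leaving out siCTL replicate 2 as well gave 0.59 (limma adjusted p = 0.00130). Scaling to library size alone gave 0.86 (limma adjusted p = 0.0827). EdgeR's quasi-likelihood test on the recovered reads gave 0.77 (adjusted p = 0.0358).

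Sass6 was also the only member past the threshold. In the limma fit 1 of the 9 members was called, where 0.293% of all genes tested were called higher and 0.0604% lower, and none of the members was called lower. Over all genes tested, 0.233% were called higher after scaling to library size alone, 0.285% by edgeR, 1.86% by DESeq2, 0.414% with the base-content trend removed, 1.7% without siCTL replicate 2 and 1.96% with both of these changes. The authors' deposited table calls 1.55% of its genes higher and 1.39% lower. EdgeR, DESeq2 and the authors' deposited table each called Sass6 as the only member. The groups did not overlap for 4 members, Sass6, Plk4, Stil and Cep192, all with the libraries labelled siTET3 above, where this holds for 16.1% of all genes tested and the opposite for 15.5%. Because the members were listed with this contrast known, nothing is read from these shares. The median log2 change of the 9 was 0.09, against -0.00 over all genes tested, and 6 of 9 were positive, against 49.3% of all genes tested. In bulk RNA, a change in the share of cells at one stage of the cell cycle and a change in RNA per cell cannot be told apart.

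**Figure D1:**
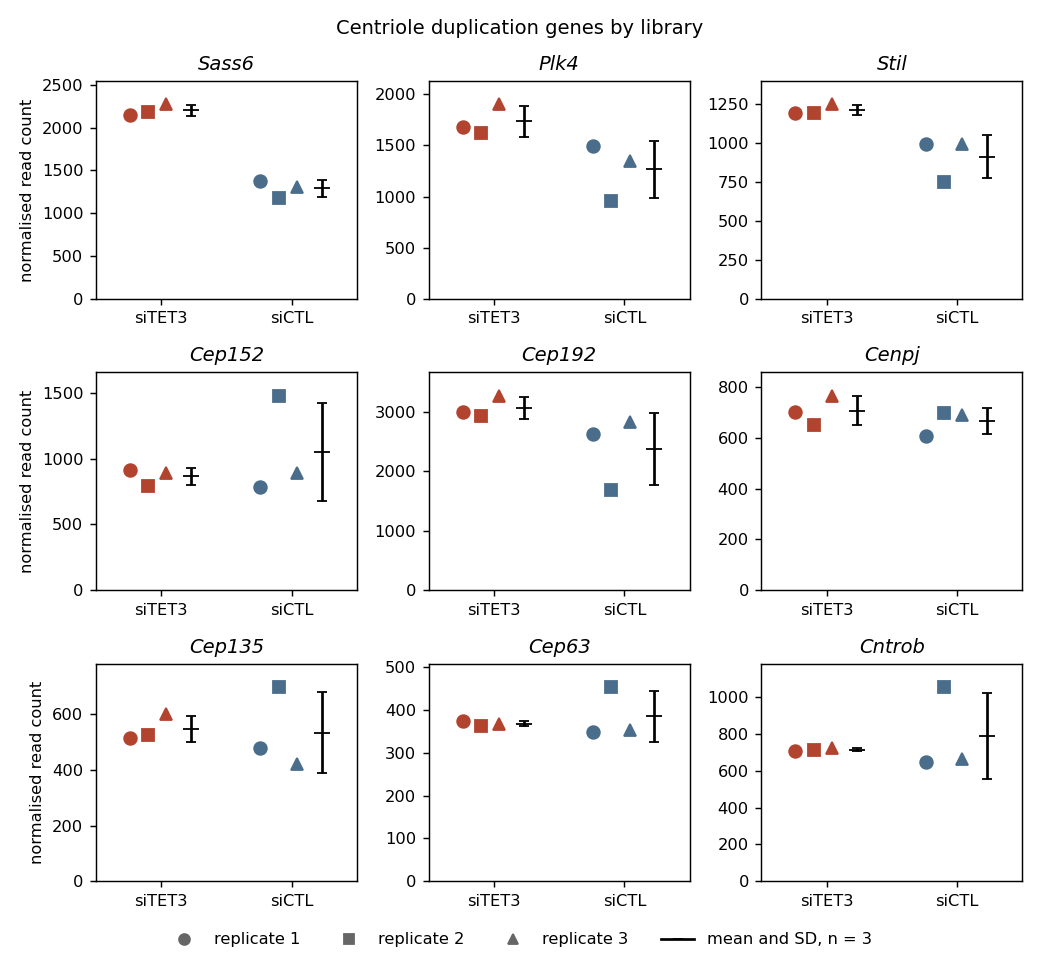
Normalised read count of each centriole duplication gene (vertical axis, from 0) in the 3 libraries labelled siTET3 and the 3 labelled siCTL, with symbols for the replicate and the mean and SD beside them. Sass6 separates the groups most widely (2150 to 2271 against 1177 to 1381), and siCTL replicate 2, the blue square, is the lowest or highest of all 6 libraries for 8 of the 9 genes.

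Plk4 and Stil, the kinase that starts duplication and its substrate, had higher counts in the libraries labelled siTET3 by less than Sass6. Plk4 (ENSMUSG00000025758, chr3:40800019-40816883, plus strand, GRCm38) had 1679, 1623 and 1902 normalised counts in the libraries labelled siTET3, against 1493, 958 and 1346 in those labelled siCTL. The groups did not overlap, but siCTL replicate 2 alone was far below the rest. The log2 change of Plk4 was 0.48 (95% interval from 0.05 to 0.90, limma adjusted p = 0.368), and 0.29 without that library (0.07 to 0.50, limma adjusted p = 0.134). Stil (ENSMUSG00000028718, chr4:115000159-115043196, plus strand) had 1192, 1191 and 1245 in the libraries labelled siTET3, against 994, 749 and 990 in those labelled siCTL. Its libraries labelled siTET3 lay close together and above all 3 labelled siCTL, again with siCTL replicate 2 lowest. The log2 change of Stil was 0.42 (0.10 to 0.74, limma adjusted p = 0.33), and 0.29 without siCTL replicate 2 (0.13 to 0.44, limma adjusted p = 0.0698). Neither gene passed in any alternative fit, nor in the authors' deposited table (adjusted p = 0.246 for Plk4 and 0.149 for Stil).

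The promoters of these 3 genes are shown because they encode the partners that found the cartwheel and because their groups did not overlap. Each runs from 250 bases before to 50 bases after the RefSeq start site (RefSeq, GRCm38.p6), 5′ to 3′ on the plus strand, at chr3:116594708-116595007 for Sass6, chr3:40799701-40800000 for Plk4 and chr4:114999868-115000167 for Stil. Capitals mark the letters searched: the cell cycle genes homology region (CHR), an element of late cell cycle promoters, as TTTGAA or TTCGAA; the CCAAT box, bound by NF-Y, as CCAAT; and an E2F-type core as TTTGGCG or TTTCCCG. Both strands were searched, and the motifs share no letters.
Sass6: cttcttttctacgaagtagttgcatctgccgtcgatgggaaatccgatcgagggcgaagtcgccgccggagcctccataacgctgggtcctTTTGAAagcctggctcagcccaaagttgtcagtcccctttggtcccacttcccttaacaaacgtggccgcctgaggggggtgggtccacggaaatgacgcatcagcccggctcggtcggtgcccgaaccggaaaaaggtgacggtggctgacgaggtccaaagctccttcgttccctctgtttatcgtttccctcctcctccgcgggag
Plk4: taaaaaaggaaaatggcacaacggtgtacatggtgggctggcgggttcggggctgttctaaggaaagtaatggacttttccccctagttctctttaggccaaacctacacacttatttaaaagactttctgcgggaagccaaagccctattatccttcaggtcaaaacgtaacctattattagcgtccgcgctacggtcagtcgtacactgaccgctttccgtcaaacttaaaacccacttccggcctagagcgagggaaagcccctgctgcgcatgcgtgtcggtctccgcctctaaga
Stil: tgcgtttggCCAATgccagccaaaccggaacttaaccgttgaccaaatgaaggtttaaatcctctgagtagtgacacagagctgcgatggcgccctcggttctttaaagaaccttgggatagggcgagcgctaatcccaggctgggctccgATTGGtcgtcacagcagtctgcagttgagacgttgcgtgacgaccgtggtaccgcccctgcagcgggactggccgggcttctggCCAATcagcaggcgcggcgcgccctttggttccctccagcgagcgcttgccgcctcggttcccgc
The Sass6 promoter holds 1 CHR match, which begins 159 bases before the start site, and no CCAAT box. The Stil promoter holds 3 CCAAT boxes, which begin 241, 99 and 15 bases before the start site, and no CHR match. None of these letters is in the Plk4 window. Over the 7 members with an entry in the promoter table, 2 held a CHR match (Sass6 and Cep152), against 19.2% of all 32851 promoters, or 14.2% of those of genes tested. The CCAAT box was in 3 of the 7 (Stil, Cep152 and Cep135), against 37.4% of all promoters, or 38.1% of those of genes tested. The E2F-type core was in none of the 7, against 4.84% of all promoters, or 8.09% of those of genes tested. Cep192 and Cntrob had no entry. The Plk4 window ends before the GENCODE M21 start of the gene. The windows of Cenpj (chr14:56571797-56572096) and Cep63 (chr9:102626075-102626374) lie inside the GENCODE M21 genes, which start at 56575425 and 102626534. The lack of a match in these 3 windows therefore does not cover the GENCODE start sites. A match is a run of letters, not a shown binding site.

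The scaffold genes Cep192, Cep152 and Cep63 did not vary as a unit. Cep192 (ENSMUSG00000024542, chr18:67800107-67885170, plus strand), whose product recruits both pericentriolar material and PLK4, had 2994, 2932 and 3276 normalised counts in the libraries labelled siTET3, against 2626, 1683 and 2823 in those labelled siCTL. The groups did not overlap, although siTET3 replicate 2 and siCTL replicate 3 lay close. The log2 change of Cep192 was 0.40 (95% interval from -0.08 to 0.89, limma adjusted p = 0.383), and 0.17 without siCTL replicate 2 (0.00 to 0.34, limma adjusted p = 0.216). Cep152 (ENSMUSG00000068394, chr2:125563088-125625113, minus strand), which binds PLK4 directly, had 911, 793 and 890 in the libraries labelled siTET3, against 787, 1479 and 892 in those labelled siCTL. All libraries but siCTL replicate 2 lay between 787 and 911, and the log2 change of -0.23 (-0.80 to 0.34) turned to 0.04 (-0.19 to 0.27) without that library. Cep63 (ENSMUSG00000032534, chr9:102584588-102626534, minus strand), the partner of CEP152 in a ring around the parent centriole, had 373, 363 and 368 in the libraries labelled siTET3, against 347, 453 and 353 in those labelled siCTL. The log2 change of Cep63 was -0.05 (-0.37 to 0.26), 0.07 without siCTL replicate 2 and, scaled by library size only, 0.03, so no direction was drawn. Per kilobase of exons, Cep152 stood at 0.659, 0.585 and 0.588 of the Cep192 level in the libraries labelled siTET3, and at 0.649, 1.90 and 0.684 of it in those labelled siCTL. The order of these scaffold genes by level was therefore turned round in 1 library.

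Cenpj, Cep135 and Cntrob, which act on the wall and on the daughter centriole, showed no difference past the threshold. Cenpj (ENSMUSG00000064128, chr14:56526761-56575425, minus strand) had 703, 652 and 766 normalised counts in the libraries labelled siTET3, against 605, 699 and 691 in those labelled siCTL. Its groups overlapped and it was the only member for which siCTL replicate 2 was neither lowest nor highest. The log2 change of Cenpj was 0.09 (95% interval from -0.17 to 0.35, limma adjusted p = 0.631), and -0.07 once the base-content trend was taken out. Cep135 (ENSMUSG00000036403, chr5:76588698-76646466, plus strand), the link between cartwheel and wall, had 515, 526 and 601 in the libraries labelled siTET3, against 479, 698 and 422 in those labelled siCTL. Without siCTL replicate 2 the libraries labelled siTET3 were all above, with a log2 change of 0.28 (0.02 to 0.54, limma adjusted p = 0.199) in place of 0.07 (-0.41 to 0.54, limma adjusted p = 0.840). That of Cep135 was -0.11 with the base-content trend removed from all 6 libraries. Cntrob (ENSMUSG00000032782, chr11:69299487-69323775, minus strand), which encodes centrobin, a protein of the daughter centriole, had 707, 714 and 721 in the libraries labelled siTET3, against 647, 1055 and 663 in those labelled siCTL. Its log2 change of -0.10 (-0.58 to 0.37, limma adjusted p = 0.752) was 0.12 (-0.05 to 0.30, limma adjusted p = 0.343) without siCTL replicate 2. The intervals of these 3 genes with all libraries include folds from 0.671 to 1.45, so a p over the threshold does not show that they did not differ.

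**Figure D2:**
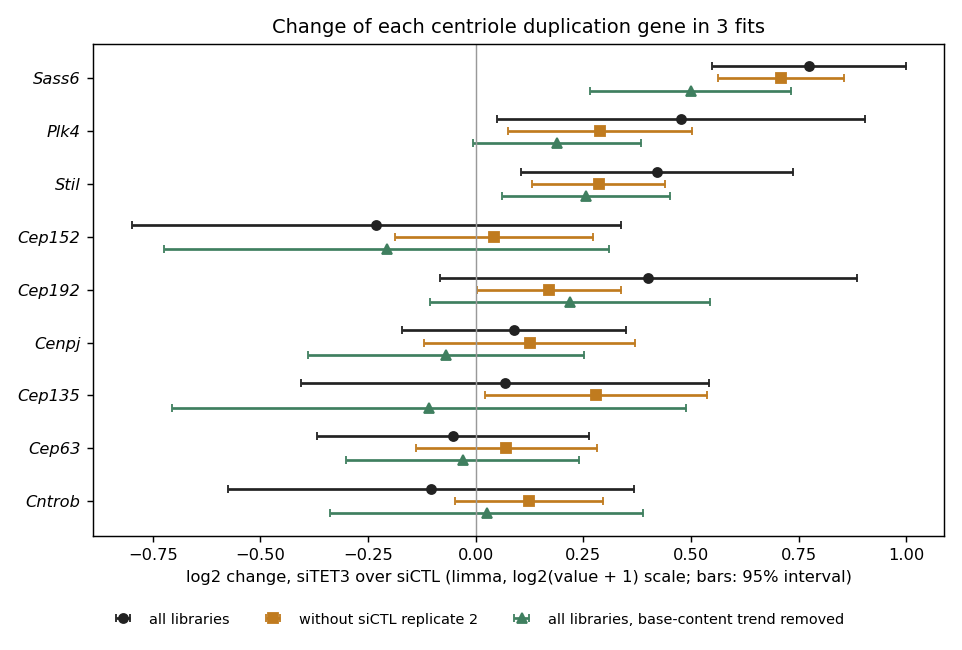
Log2 change of the libraries labelled siTET3 over those labelled siCTL (horizontal axis, limma on log2(value + 1)) for each gene, with 95% intervals, in 3 fits: all libraries, without siCTL replicate 2, and all libraries with the base-content trend removed. Sass6 lies at 0.77, 0.71 and 0.50, and Cep152, Cep63 and Cntrob change sign without siCTL replicate 2.

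Leaving out siCTL replicate 2 changed which groups overlapped. The groups then did not overlap for 7 members, all with the libraries labelled siTET3 above, where this holds for 21.2% of all genes tested and the opposite for 20.6%, and Cep152 and Cenpj overlapped. All 9 log2 changes were positive, with a median of 0.17. Limma called only Sass6 among them, where it called 1.7% of all genes tested higher. This library was left out with its values known, and a comparison of 3 with 2 libraries separates groups more readily than one of 3 with 3.

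The way siCTL replicate 2 departed from the other libraries split the members. It was the lowest of all 6 libraries for Sass6, Plk4, Stil and Cep192 and the highest for Cep152, Cep135, Cep63 and Cntrob. Against the mean of siCTL replicates 1 and 3, it held 0.618 of the Cep192 count, 0.675 of Plk4, 0.755 of Stil and 0.875 of Sass6. It held 1.76 times the Cep152 count, 1.61 times Cntrob, 1.55 times Cep135, 1.30 times Cep63 and 1.08 times Cenpj. The transcripts of Sass6, Plk4, Stil and Cep192 had a base content between 42.1% and 44.9% G and C, and those of Cep152, Cep63 and Cntrob 50.6%, 50.6% and 55.1%. Cep135 at 44.6% was on the high side and so did not follow this order. In all, 6 of the 9 members fell in the third of tested genes with the least G and C, which reaches up to 47.0% and had a median log2 change of 0.23 between the labelled groups, or 0.11 without siCTL replicate 2. Of these 6, Sass6, Plk4, Stil and Cep192 were above that median with all libraries and Cenpj and Cep135 below it. Without siCTL replicate 2 all 6 were above the median of 0.11, with Cenpj at 0.13 and Cep135 at 0.28. What part base content has in the differences of these genes was not tested beyond the fits with its trend removed.

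**Figure D3:**
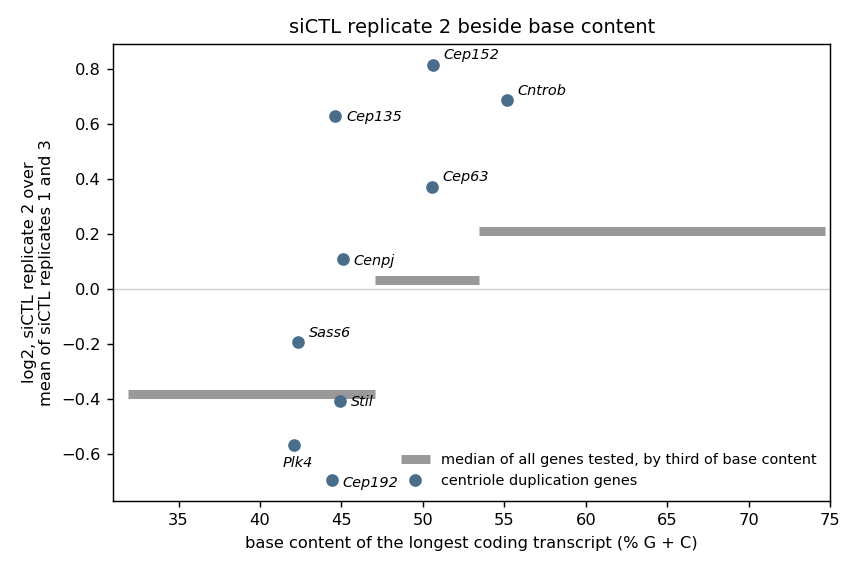
Log2 of siCTL replicate 2 over the mean of siCTL replicates 1 and 3 (vertical axis) against the G and C percentage of the longest coding transcript (horizontal axis) for the 9 genes, with grey bars for the median of all tested genes in 3 equal groups by base content. Plk4, Stil, Cep192 and Sass6 lie below 0 at 44.9% G and C or less, and Cep135 lies well above 0 at 44.6%.

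Per kilobase of merged exons, Sass6 had the highest level of the 9 and Cep63 the lowest. The mean over the libraries labelled siTET3 was 359 normalised reads per kilobase for Sass6, 253 for Plk4, 246 for Cep192, 209 for Stil, 149.9 for Cep152, 145 for Cenpj, 107 for Cntrob, 76.1 for Cep135 and 38.3 for Cep63. In that group Plk4 and Cep192 overlapped over the libraries, as did Cep152 and Cenpj, and the other neighbours in the order did not. In the libraries labelled siCTL the mean was 211 for Sass6, 190.4 for Cep192, 185 for Plk4, 183 for Cep152, 157 for Stil, 137 for Cenpj, 118 for Cntrob, 74.2 for Cep135 and 40.1 for Cep63. There, neighbours from Sass6 down to Cntrob overlapped, and the steps to Cep135 and Cep63 did not. The Sass6 level was 22.5%, 23.4% and 22.3% of the summed level of the 9 genes in the libraries labelled siTET3, against 17.5%, 14.8% and 16.5% in those labelled siCTL. Sass6 stood at 1.71, 1.73 and 1.73 times the level of Stil per kilobase in the libraries labelled siTET3, against 1.31, 1.49 and 1.25 times in those labelled siCTL. The ratio of Sass6 to Plk4 was 1.43, 1.5 and 1.34 in the libraries labelled siTET3, against 1.04, 1.38 and 1.09 in those labelled siCTL, and here the groups overlapped through siCTL replicate 2. Merged exons count every annotated exon, and with coding length in their place only 3 of the 9 genes kept their place in the order over all libraries, Sass6, Plk4 and Cep192 at its head.

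**Figure D4:**
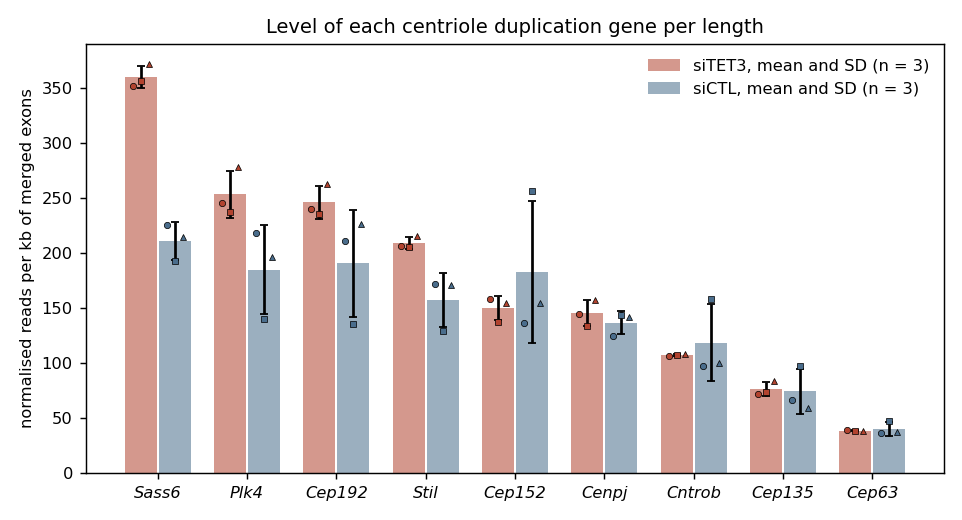
Normalised reads per kilobase of merged exons (vertical axis, from 0) for the 9 genes, in order of the mean over all libraries, as bars for the mean and SD of the libraries labelled siTET3 (left, red) and siCTL (right, blue), with points for each library (circle, square and triangle for replicates 1, 2 and 3). Sass6 has the highest mean in both groups, 359 and 211, and Cep63 the lowest, 38.3 and 40.1.

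The reads given to Sass6 and Cep63 may include those of neighbours. In GENCODE M21, Sass6 shares 389 exonic bases, 6.36% of its merged exons, with Trmt13 on the opposite strand, and 1502 bases, 24.5%, with the antisense gene Gm42893, which was not analysed here. The library kit keeps strand, but the counting is not stated to use it, so reads of these partners cannot be told apart from those of Sass6. Trmt13, a tRNA methyltransferase gene, had 692, 656 and 737 normalised counts in the libraries labelled siTET3, against 642, 936 and 652 in those labelled siCTL. It had a log2 change of -0.08 (limma adjusted p = 0.787), or 0.10 without siCTL replicate 2 (limma adjusted p = 0.495). Cep63 shares 239 exonic bases with Anapc13, a gene of the anaphase-promoting complex on the opposite strand, whose log2 change was -0.41 (limma adjusted p = 0.392), or -0.15 without siCTL replicate 2 (limma adjusted p = 0.304). Plk4, Stil, Cep152, Cep192, Cep135 and Cntrob overlap no other annotated gene.

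The genes whose profile over the 6 libraries was most like that of Sass6 were looked up next. Likeness was the root mean square difference of log2(value + 1), each gene centred on its own mean, among 10079 other genes with a mean of at least 100. The nearest were Ifih1 (distance 0.041 on the log2 scale), Ccna2 (0.049), Parp9 (0.054), Abca1 (0.057), Nusap1 (0.069), Slfn5 (0.076), Anln (0.077), Ccnb1 (0.079), Kif20b (0.081) and Dtx3l (0.084). Ifih1 encodes an RNA sensor, Ccna2 and Ccnb1 encode cyclins, Abca1 a cholesterol exporter, Nusap1 a spindle protein, Anln a protein of the cleavage furrow and Kif20b a kinesin. Ifih1, Parp9, Abca1, Slfn5, Kif20b and Dtx3l are in none of the centriole or cell cycle lists below. The G2 and M phase list holds other kinesins, so the absence of Kif20b does not set it apart from cell division. With an RNA sensor and a cholesterol exporter among them, the nearest profiles were not of cell division genes alone. Ifih1 had 2003, 2029 and 2173 normalised counts in the libraries labelled siTET3, against 1204, 1085 and 1214 in those labelled siCTL, nearly the counts of Sass6 itself. The next members by this measure were Stil at rank 122 (0.19) and Plk4 at rank 161 (0.20), then Cep192 at rank 731 (0.26), and Cep152 was the farthest at rank 8738 (0.61). As this measure uses the same libraries that separate the groups, it describes them only.

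Genes that act around the duplication step were counted from lists of the pathway. Over all genes tested, 13.2% had an unadjusted p under 0.05 in limma in either direction, and 6.25% had one and were higher. The counts of each list stand beside these shares. The list of genes that control PLK4 or STIL stability and license centrioles had 22 tested members, of which limma called none and 8 had an unadjusted p under 0.05, 7 of them higher. Its median log2 change was 0.08, and 13 members were positive. Plk1, the mitotic kinase that disengages centrioles, had 2149, 2076 and 1961 normalised counts in the libraries labelled siTET3, against 1225, 1395 and 1299 in those labelled siCTL (log2 change 0.66, limma adjusted p = 0.0573). Ccnb1, the mitotic cyclin, had 3643, 3917 and 3486 in the libraries labelled siTET3, against 2275, 1830 and 2237 in those labelled siCTL (0.81, limma adjusted p = 0.0655). Neither set of groups overlapped, and siCTL replicate 2 was the highest of its group for Plk1 and the lowest for Ccnb1. The log2 changes of Cdc20, an activator of the anaphase-promoting complex, and Cdk1, the kinase partner of cyclin B, were 0.40 and 0.56 (limma adjusted p = 0.180 and 0.222). Without siCTL replicate 2 limma called 6 of the 22 higher, which were Ccnb1, Plk1, Nek2, Cdk1, Pttg1 and Cdc20, where it called 1.7% of all genes tested higher. Nek2, the kinase that parts centrosomes, and Pttg1, the inhibitor of separase, were named after their values were seen (log2 changes of 0.58 and 0.67, limma adjusted p = 0.00637 and 0.0298). By the roles given here the 6 called also serve mitosis. Their absence from the G2 and M phase list below reflects only how the lists were drawn up. The same fit called 25 of the 44 genes of that list. The other members of the PLK4 and STIL list were not called, with log2 changes between -0.28 (Pidd1) and 0.39 (Fbxw11) with all libraries. The 6 calls are therefore not read as a difference in genes of PLK4 or STIL stability. EdgeR with all libraries called none of the list, and DESeq2 on the recovered reads called 6, all higher, where it called 1.86% of all genes tested higher. With the base-content trend removed limma called 2 of the list, Plk1 (0.81, limma adjusted p = 0.00963) and Ccnb1 (0.61, limma adjusted p = 0.0454), where it called 0.414% of all genes tested higher, and did not call Sass6.

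Among 33 tested genes of centriole assembly, elongation and length, limma called none with all libraries, and 2 had an unadjusted p under 0.05. The median log2 change was 0.09 and 23 of the 33 were positive. Hyls1, which encodes a centriolar protein needed for cilia, had 251, 273 and 306 normalised counts in the libraries labelled siTET3, against 215, 153 and 174 in those labelled siCTL (log2 change 0.62, limma adjusted p = 0.284). DESeq2 on the recovered reads called Hyls1 alone (adjusted p = 0.0478), and edgeR called none. Ppp1r35, which encodes a regulator of centriole elongation, had 386, 343 and 379 in the libraries labelled siTET3, against 550, 1087 and 480 in those labelled siCTL (-0.84, and -0.48 without siCTL replicate 2, limma adjusted p = 0.353 and 0.0680). Cep57 and Cep350, which encode centriolar and microtubule-anchoring proteins, had log2 changes of 0.20 and 0.20 (limma adjusted p = 0.378 for each), and of -0.07 and 0.10 with the base-content trend removed. Cetn1 was at 0 in every library and was the 1 member of the list not tested.

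Of 28 genes of the pericentriolar material, the protein cloud that nucleates microtubules, limma called none, 4 had an unadjusted p under 0.05 and 16 were positive, with a median log2 change of 0.13. Aurka, a kinase of centrosome maturation, had 3463, 3268 and 3481 normalised counts in the libraries labelled siTET3, against 2363, 2452 and 2689 in those labelled siCTL (log2 change 0.45, limma adjusted p = 0.172). Its groups did not overlap, and DESeq2 called it alone of the list (adjusted p = 0.000264), while edgeR called none. The log2 changes of Ckap5, a microtubule polymerase, Cep55, a protein of abscission, and Haus7, a subunit of the augmin complex, were 0.30, 0.29 and -0.25 (limma adjusted p = 0.337, 0.374 and 0.374). Those of Ckap5 and Cep55 were 0.10 and 0.11 with the base-content trend removed, and that of Haus7 was -0.17 without siCTL replicate 2. Without siCTL replicate 2 limma called 3, Aurka, Cep55 and Tacc3, all higher, where it called 1.7% of all genes tested higher. Tacc3, a spindle protein, was named after its values were seen (log2 change 0.34, limma adjusted p = 0.0379).

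The satellite and linker list and the appendage list held no call. Limma, edgeR and DESeq2 called none of 18 satellite and linker genes, of which 3 had an unadjusted p under 0.05 in limma and 11 were positive, with a median log2 change of 0.08 that was -0.11 with the base-content trend removed. Ccdc18, Cep68, Cep70 and Mib1 had log2 changes of 0.66, 0.36, 0.47 and 0.36 (limma adjusted p from 0.318 to 0.378). Those of Cep68, Cep70 and Mib1 were 0.23, 0.28 and 0.20 without siCTL replicate 2. With the base-content trend removed those of Ccdc18, Cep70 and Mib1 were 0.06, 0.08 and 0.13. Of 15 tested appendage genes none had an unadjusted p under 0.05, 6 were positive and the median was -0.04, or 0.12 without siCTL replicate 2. Fbf1, Ttbk2, Ccdc120 and Sclt1 had log2 changes of -0.42, 0.65, 0.36 and 0.20 (limma adjusted p from 0.382 to 0.433), those of Fbf1, Ttbk2 and Ccdc120 being -0.19, 0.19 and 0.18 without siCTL replicate 2. With the base-content trend removed, the change of Sclt1 was -0.03. Ttbk2, the kinase that starts cilium assembly, had 251 normalised counts in siCTL replicate 2 and between 602 and 770 in the other 5 libraries.

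Lists of G2 and M phase and of DNA replication show where the 9 genes stand within the cell cycle genes. Of 44 G2 and M phase genes, limma called 1 higher, and 30 had an unadjusted p under 0.05, all of them higher. That holds for 6.25% of all genes tested. In the list, 39 were positive and the median log2 change was 0.45. Cdc25c, the phosphatase that activates CDK1, had 565, 550 and 549 normalised counts in the libraries labelled siTET3, against 328, 346 and 352 in those labelled siCTL (log2 change 0.70, limma adjusted p = 0.0437). Ccna2 had 6105, 6125 and 6712 in the libraries labelled siTET3, against 3799, 3331 and 3986 in those labelled siCTL (0.77, limma adjusted p = 0.0502), and without siCTL replicate 2 limma called 25 of the list. That fit called 1.7% of all genes tested higher. Without any 1 of the other 5 libraries limma called none of the list, and between 2 and 24 of all 11591 genes tested. Of 49 DNA replication genes limma and edgeR called none, DESeq2 called 1, 4 had an unadjusted p under 0.05, 27 were positive and the median was 0.06. Dbf4, the activator of the CDC7 kinase, and Cdc6, a loader of the replicative helicase, had log2 changes of 0.45 and -0.35 (limma adjusted p = 0.180 and 0.335), and that of Dbf4 was 0.27 with the base-content trend removed. The 0.77 of Sass6 stood above the G2 and M phase median, while Plk4 at 0.48, Stil at 0.42 and Cep192 at 0.40 stood near it and the other 5 members below it. Without siCTL replicate 2 Plk4, Stil and Cep192 were at 0.29, 0.29 and 0.17, below a list median of 0.45, and with the base-content trend removed at 0.19, 0.26 and 0.22, below 0.33. Sass6 was above the list median in both, at 0.71 and 0.50. The difference between the lists was not tested.

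**Figure D5:**
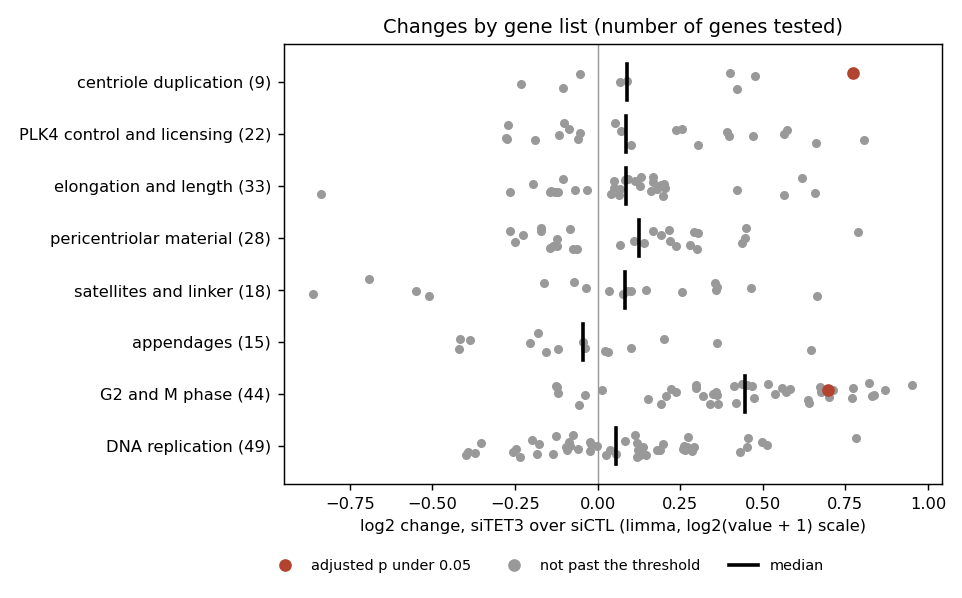
Log2 change of the libraries labelled siTET3 over those labelled siCTL (horizontal axis) for each tested gene, 1 point a gene, by list, with a black bar for the median and red for an adjusted p under 0.05. Medians lie between -0.04 and 0.13 for the centriole lists and at 0.45 for G2 and M phase, and the only red points are Sass6 and Cdc25c.

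Markers of multiciliated cells, which make centrioles outside the division cycle, were low or at 0. The highest was Rsph1, with 83.4 to 307 normalised counts over the 6 libraries. Deup1, a relative of Cep63 that builds deuterosomes in multiciliated cells, was at 0 in all 6 libraries, as were Gmnc, Dnah5 and Tekt1. The 10 multiciliated markers summed to between 98.9 and 185 normalised counts in the libraries labelled siTET3 and to 182, 357 and 203 in siCTL replicates 1, 2 and 3, most of it from Rsph1.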

How the data were processed

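RNA of 6 libraries was compared, 3 labelled siTET3 and 3 labelled siCTL. Per the labels' protocols, total RNA went into a stranded mRNA kit. The build was GRCm38 (mm10), per the submitters' processing notes, with aligner and counter not given in the sources used here. The authors deposited signal values, counts divided by a size factor for each library: dividing each by what 1 read is worth gave whole reads for 100% of them (within 0.001 reads). The deposited table also holds log2 fold changes of siCTL over siTET3, turned round here, their standardised score, and p-values, per the file headers and from DESeq2 per the workbook's name.

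Members and lists were chosen with earlier results of these data known. The test was limma 3.58.1 (R 4.3.3) with a mean-variance trend, fitted to log2(value + 1) by group over 11591 genes with a mean of at least 10, at a Benjamini-Hochberg adjusted p of 0.05. Fold changes on this scale understate the change of low genes. All 9 members and all 5 centriole lists, the 2 cell cycle lists and the 5 marker lists were matched by symbol. Named genes were the members, the first 4 by p of each centriole list, the first 2 of each cell cycle list, and the 10 most like Sass6. Coordinates, exons and base content came from GENCODE M21, whose identifiers of Sass6 and Cenpj have a later version than the table's. Alternatives used edgeR 4.0.16 and DESeq2 1.42.0 on recovered reads, other scalings, filters and pseudocounts, a per-library lowess of base content, and each library left out. The tests were tried on simulated data.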

Additional observations from a re-analysis of the deposited data

How the results depend on the processing

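The log2 change of Sass6 was positive in all 18 alternatives, from 0.50 to 0.86, and those of Plk4, Stil and Cep192 were positive in all 18 too. The sign of Cep152 changed in 2, of Cenpj in 2, of Cep63 in 3, of Cep135 in 4 and of Cntrob in 4, and that of Tet3 in 3, and none of these was called in any. The count of members called was 0 with scaling to library size alone and with the base-content trend removed, and 0 or 1 with 1 library left out; the cause was not tested. Over all genes, DESeq2 called 435, limma without siCTL replicate 2 and with the trend removed 363, and the fits with 1 library left out between 2 and 320, against 41.

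DESeq2 called 1 elongation gene, 6 of PLK4 control, 1 of pericentriolar material, 16 of G2 and M phase and 1 of replication. Scaling to library size alone called 1 of PLK4 control and 0 of G2 and M phase. Removing the trend called 2 of PLK4 control and 3 of G2 and M phase, and leaving out siCTL replicate 2 as well called 7, 28 and, of pericentriolar material, 2. With 1 library left out the counts ran from 0 to 6 for PLK4 control, 0 to 3 for pericentriolar material, 0 to 25 for G2 and M phase and 0 to 1 for replication. G2 and M phase calls numbered 2 with a pseudocount of 5, 0 without a filter and 2 with a filter at a mean of 50.

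Labels number the replicates alike in both groups, but same-numbered libraries did not deviate together (correlations of 0.03, -0.06 and -0.10 over 11591 genes). Because siCTL replicate 2 stood far from its group, these correlations cannot tell whether same-numbered libraries shared a batch. With a replicate block limma called 1 gene in all, 0 members and 0 of G2 and M phase; with the base-content trend also removed these were 4, 0 and 0. No library correlated best with its own number.

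By level, 5 of 9 members kept their place in the libraries labelled siCTL alone, and 3 with coding length, an alternative chosen after seeing the data. A protein table was not used here, so its coding length was not run. All members lay far above the value of 3 reads.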
